A study of Mus musculus with 6 samples.

Results

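The genes described here are the clustered replication-dependent core histone genes, which encode the H2A, H2B, H3 and H4 proteins that DNA is wound around in the nucleosome. They were taken by name, as the gene rows whose symbol starts with Hist1h to Hist4h followed by 2a, 2b, 3 or 4, and were kept where over 10 expected counts, the read numbers that RSEM assigns to a gene, were present in at least 2 libraries. Of 63 rows with such a name, 60 met that rule, out of 35976 genes listed and 17348 tested. They comprised 18 H2A, 18 H2B, 12 H3 and 12 H4 genes. By their names, 46 members were counted under Hist1, 10 under Hist2, 3 under Hist3 and 1 under Hist4, which the RefSeq annotation of GRCm38.p6 places on chromosomes 13, 3, 11 and 6. Hist1h2al and Hist3h2bb-ps, which are annotated as pseudogenes, carry the name and are counted among them, although Hist1h2al lies outside the cluster on chromosome 13.

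The study measured RNA in satellite cells, the Pax7-expressing stem cells of skeletal muscle, from mice in which the gene of NF-YA was deleted. NF-Y, a trimeric transcription factor, recognises the CCAAT box in DNA through NF-YA. In the NF-YAcKO group (3 libraries) a tamoxifen-activated Cre recombinase under Pax7 control (Pax7-CreERT2) removed the part of Nfya flanked by LoxP sites, and the control group NF-YAfl/fl (3 libraries) carried the floxed alleles without Cre. Mice of both groups received tamoxifen (20 mg/ml), were 5 to 7 weeks old by the labels, and their cells were enriched by magnetic depletion of CD31+, CD45+, CD11b+ and Sca1+ cells and grown in growth medium. Cre acts only in Pax7+ cells and recombines a part of them, so cells with intact alleles can remain in the NF-YAcKO cultures. Because the libraries were made from total RNA (500 ng) and not from polyadenylated RNA, transcripts without a poly(A) tail were measured.

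Core histone mRNAs of these genes are made mainly during S phase, when new DNA has to be packaged. They end, in place of a poly(A) tail, in a conserved stem-loop that the stem-loop binding protein Slbp holds while the U7 small nuclear ribonucleoprotein directs the cut, and the same structure governs their rapid decay when replication stops. Npat, a cyclin E-Cdk2 substrate, coordinates transcription of the clusters, with Hinfp at H4 promoters and the octamer factor Pou2f1 at H2B promoters, and many H2A and H2B genes stand head to head and share a promoter with CCAAT boxes.

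The stem-loop is shown first because it defines the class. A 16-letter pattern was searched on the sense strand of the GENCODE vM21 transcripts, made of a stem of 6 bases that starts with GG, a loop of 4 bases that starts with TTT and the reverse complement of the stem. It was found in 79 of 55341 gene symbols there, 39 of them members. Why the other members lacked a match was not tested. Their GENCODE models include short ones, such as the 381-nt model of Hist1h2bq, and long ones, such as the 2620-nt model of Hist2h2be. For 38 members whose model had a single exon, the end of the RefSeq gene could be set against the pattern, and in 36 it lay 0 to 10 bases downstream of it (median 5). Below are the stem-loops of Hist2h2aa1 at chr3:96246027-96246052 on the plus strand, Hist1h3c at chr13:23745042-23745067 on the minus strand and Hist1h4d at chr13:23581945-23581970 on the plus strand (GRCm38), all in the 3′ untranslated part, with the 16 letters of the pattern in capitals.
Hist2h2aa1: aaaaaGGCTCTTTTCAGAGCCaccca
Hist1h3c: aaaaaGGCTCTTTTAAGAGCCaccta
Hist1h4d: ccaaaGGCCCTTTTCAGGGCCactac
The stem of H4 differed from that of the other types. The first of these 3 sequences was the commonest form in H2A (10 of 11 members with a match), H2B (8 of 10) and H3 (5 of 8), while none of the 10 H4 members with a match had it and 6 had the form shown for Hist1h4d.

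Promoters are shown next because the deleted protein binds CCAAT. RefSeq windows (GRCm38.p6, 250 bases before to 50 after the start of a gene) were listed for 53 members. CCAAT was searched on both strands, and it was present in 17 of 17 H2A, 15 of 15 H2B and 10 of 10 H3 promoters but in 3 of 11 H4 promoters, against 12289 of all 32851 windows (37.4%). At least 2 matches were found in 41 of the 53 windows (77.4%), against 3842 of all windows (11.7%). Of the 128 matches, 115 lay between 200 and 30 bases before the start. A match is a description of letters and not a bound site. Below are Hist1h2ah (chr13:22035594-22035893, minus strand), whose window reaches the start of its divergent neighbour Hist1h2bk, Hist1h3c (chr13:23745472-23745771, minus strand) with 5 matches, Hist1h4d (chr13:23581318-23581617, plus strand) with 1 and Hist1h4m (chr13:21811496-21811795, plus strand) with none, CCAAT or its reverse complement being in capitals.
Hist1h2ah: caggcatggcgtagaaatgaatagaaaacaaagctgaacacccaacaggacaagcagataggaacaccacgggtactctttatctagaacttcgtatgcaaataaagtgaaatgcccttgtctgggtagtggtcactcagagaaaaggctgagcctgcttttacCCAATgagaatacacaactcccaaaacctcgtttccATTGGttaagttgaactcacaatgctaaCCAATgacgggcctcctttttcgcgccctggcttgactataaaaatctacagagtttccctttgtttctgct
Hist1h3c: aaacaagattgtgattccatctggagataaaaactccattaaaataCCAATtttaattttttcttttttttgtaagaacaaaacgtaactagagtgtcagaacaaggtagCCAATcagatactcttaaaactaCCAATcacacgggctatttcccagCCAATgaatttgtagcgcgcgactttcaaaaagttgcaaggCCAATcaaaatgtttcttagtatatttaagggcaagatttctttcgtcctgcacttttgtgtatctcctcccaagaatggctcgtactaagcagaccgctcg
Hist1h4d: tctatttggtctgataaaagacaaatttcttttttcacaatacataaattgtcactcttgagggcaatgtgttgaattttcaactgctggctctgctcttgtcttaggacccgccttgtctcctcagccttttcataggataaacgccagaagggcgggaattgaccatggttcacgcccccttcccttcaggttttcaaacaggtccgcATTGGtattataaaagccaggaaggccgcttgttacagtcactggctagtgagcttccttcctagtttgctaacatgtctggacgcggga
Hist1h4m: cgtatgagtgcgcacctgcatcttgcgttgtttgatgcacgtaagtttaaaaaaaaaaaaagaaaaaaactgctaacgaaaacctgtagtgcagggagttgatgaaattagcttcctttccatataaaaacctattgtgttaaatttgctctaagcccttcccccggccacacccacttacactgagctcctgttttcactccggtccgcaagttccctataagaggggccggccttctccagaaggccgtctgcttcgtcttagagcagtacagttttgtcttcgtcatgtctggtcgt
Other promoter letters differed by type as well. The octamer ATTTGCAT, searched on both strands, was found in 6 of 17 H2A and 5 of 15 H2B windows and in none of 10 H3 and 11 H4 windows, against 570 of all windows (1.735%). TATAAA, also searched on both strands, was found in 28 of 53 member windows (52.8%) against 4473 of all (13.6%). The 3 motifs were counted independently of each other, and a match between divergent genes counts for both.

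**Figure D1:**
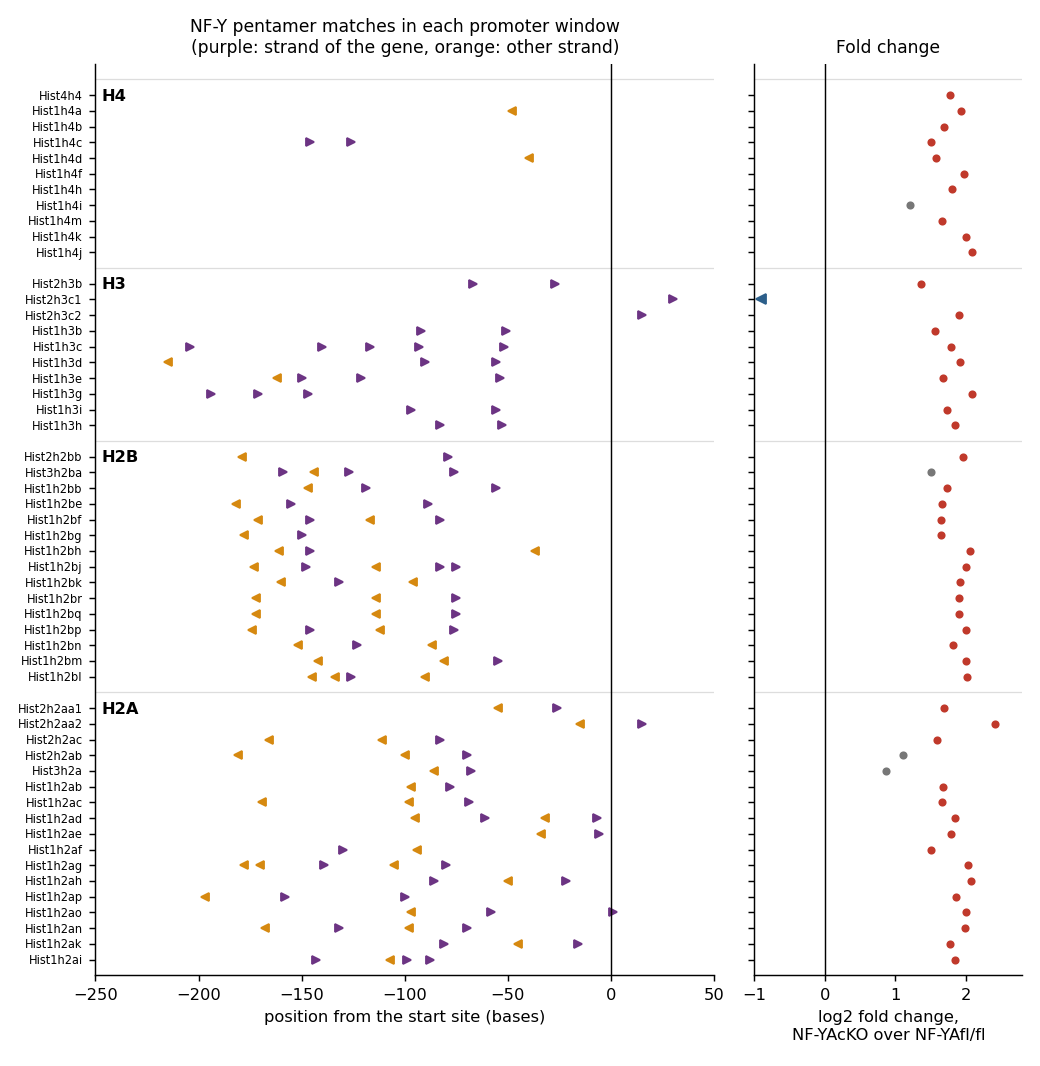
Left, position of each CCAAT match relative to the start site (bases, x axis) for the 53 members with a listed promoter, by histone type, the arrowhead giving the strand. Right, log2 fold change of the same gene in NF-YAcKO over NF-YAfl/fl, red for genes called higher, grey for genes not called and the blue arrowhead for Hist2h3c1, whose fitted value of -8.41 lies outside the axis. The H4 rows are almost free of matches, and 10 of their 11 fold changes are called higher, as are most of those of the other types.

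Total expected counts ranged from 31040863 to 41118984 in the NF-YAcKO libraries and from 26936230 to 33316730 in the NF-YAfl/fl libraries. The deletion was visible in the transcript that the study added for the recombined allele, which took 189, 312 and 393 expected counts in the NF-YAcKO libraries (22.3, 26.4 and 34.2% of all Nfya counts) and 0 in every NF-YAfl/fl library, while Nfya as a whole was at 27.0, 28.5 and 27.0 CPM (expected counts scaled to library size with TMM) against 23.4, 25.7 and 36.9 CPM (log2 fold change -0.06, FDR = 0.814). Xist, expressed from the inactive X chromosome of females, was at 836 to 852 CPM in NF-YAcKO and at 0.306 to 0.475 CPM in NF-YAfl/fl, and the Y-linked Ddx3y was at 0.0470 to 0.0957 CPM against 81.0 to 88.6 CPM, although the study's methods state male mice, so the effects of sex and of the deletion cannot be told apart here. Summed levels of 9 differentiated muscle genes were at 624 to 1410 CPM in NF-YAcKO and 45210 to 54940 CPM in NF-YAfl/fl (9 of 9 called lower). Those of 8 macrophage genes were at 139 to 276 CPM against 5.26 to 12.1 CPM (8 of 8 called higher), and no listed marker of either kind was at 0 in a whole group. Of 7 satellite cell and myoblast genes, Des (log2 fold change -2.09) and Cdh15 (-1.78) were called lower. Itga7 (-1.25, FDR = 0.0116) was not called, nor was Pax7, at 146 to 201 CPM against 73.5 to 105 CPM (0.94, FDR = 0.00624, under the fold threshold). Of the other lists, 1 of 4 endothelial, 1 of 5 fibro-adipogenic and 3 of 4 Schwann genes were called higher, and 1 of 3 pericyte genes tested was called lower. The part of cell composition in the histone values was not tested, and in bulk RNA fewer cells of a type and less RNA per cell cannot be told apart.

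Core histone RNA was higher in NF-YAcKO satellite cells. Genes were called where edgeR's quasi-likelihood test over all genes gave an FDR below 0.01 and the log2 fold change exceeded 1 in either direction. By that rule 51 of the 60 members were called higher and 1 was called lower, where 4.65% of all genes tested were called higher and 7.67% lower. Over the members the median log2 fold change was 1.78, with the middle of the distribution between 1.59 and 1.94, beside a median of -0.02 over all genes tested. In 56 members every NF-YAcKO library lay above every NF-YAfl/fl library (29.1% of all genes tested did so). The fold changes of the 51 called members ran from 1.36 to 2.41 on the log2 scale, with FDR values from 0.000546 to 0.00931.

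The FDR was above 0.005 in 12 of these 51 members, and the count of calls depended on single libraries. Leaving out NF-YAcKO replicate 1, 2 or 3 left 32, 4 or 8 members called higher, and leaving out NF-YAfl/fl replicate 1 left 10. Higher calls over all genes fell as well, from 806 in the full fit to 283, 177, 279 and 298 in the same order, of 17099 to 17245 genes tested. The members' median log2 fold change stayed between 1.63 and 2.04 over the 6 fits without 1 library. With FDR under 0.05 and the same fold, 51 to 54 members were called higher in each of those 6 fits, where the calls over all genes were not counted. In the full fit that threshold called 53 members and 1163 of all 17348 genes higher.

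**Figure D2:**
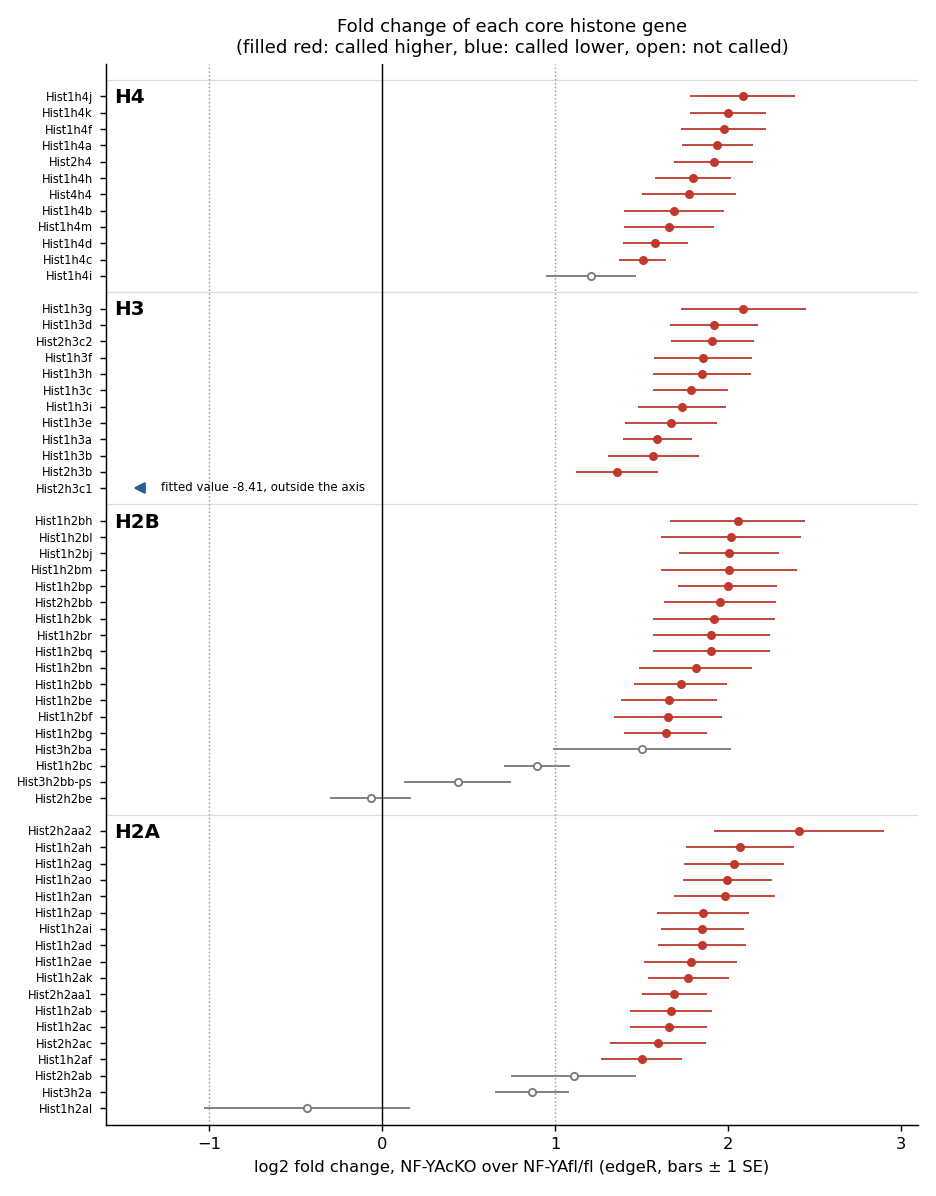
Log2 fold change (x axis, NF-YAcKO over NF-YAfl/fl, points with bars of 1 SE from edgeR) of each of the 60 members, grouped by histone type, filled red where called higher, blue where called lower and open where not called; dotted lines mark the fold threshold. Most points fall between 1.5 and 2.1. Within the axis, Hist1h2al (-0.43) and Hist2h2be (-0.07) lie below 0, and Hist3h2bb-ps, Hist3h2a and Hist1h2bc lie between 0 and 1.

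The 4 histone types had nearly the same ratio between the groups. The summed level of the 18 H2A genes was 943, 1415 and 1338 CPM in NF-YAcKO and 314, 467 and 328 CPM in NF-YAfl/fl (1232 ± 253 against 370 ± 84.4, mean ± SD, n = 3), a ratio of means of 3.33. The 18 H2B genes summed to 1346, 2044 and 1883 CPM against 476, 745 and 364 CPM, a ratio of 3.33. The 12 H3 genes summed to 923, 1320 and 1271 CPM against 279, 476 and 286 CPM, a ratio of 3.38. For the 12 H4 genes the sums were 1130, 1722 and 1626 CPM against 384, 551 and 402 CPM, a ratio of 3.35. In each type the lowest NF-YAcKO library stood above the highest NF-YAfl/fl library, and no test was run on the sums.

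All members together made up 0.439, 0.655 and 0.634% of the expected counts in NF-YAcKO and 0.141, 0.226 and 0.133% in NF-YAfl/fl. Within the groups the libraries differed in a like way for nearly every member: NF-YAfl/fl replicate 2 was the highest control library in 53 of 60 members and NF-YAcKO replicate 1 the lowest knockout library in 59 of 60. On the TPM scale, which is per transcript length, the sum over members was 17040, 21700 and 22660 in NF-YAcKO and 5602, 10540 and 4246 in NF-YAfl/fl, a ratio of means of 3.01. TPM and CPM did not move in step between libraries, since the summed TPM per summed CPM was 3.34 to 3.92 in NF-YAcKO and 3.86, 4.71 and 3.08 in NF-YAfl/fl replicates 1, 2 and 3.

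The proportions between the types hardly moved. H4 took 33.6 ± 0.119% of the members' TPM in NF-YAcKO and 34.5 ± 2.51% in NF-YAfl/fl (SD, n = 3), H2B 30.5 ± 0.369% and 29.3 ± 3.79%, H2A 18.9 ± 0.126% and 19.2 ± 1.27%, and H3 17.0 ± 0.345% and 17.0 ± 0.898%. The differences were smaller than the spread of the control libraries for every type.

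**Figure D3:**
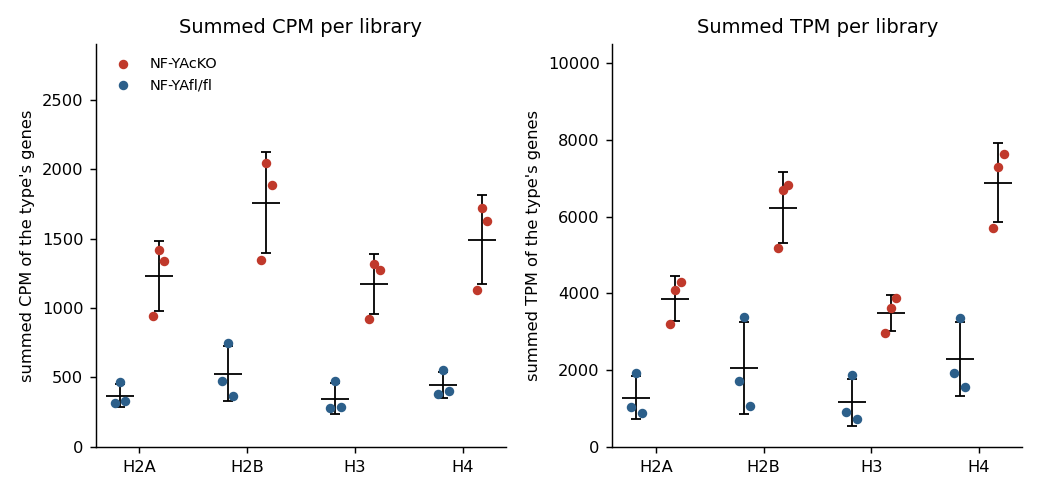
Summed level of the members of each histone type in each library (points), in CPM on the left and TPM on the right, with the mean and SD of the 3 libraries of a group in black. In both units and all types the 3 NF-YAcKO points lie above the 3 NF-YAfl/fl points, and the control point nearest to them is replicate 2.

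Among the H2A genes, whose protein pairs with H2B, 15 of 18 were called higher and the other 3 were not called. The most abundant by TPM was Hist2h2aa1 (chr3:96245497-96246052, plus strand), with 276, 426 and 407 CPM in NF-YAcKO and 101, 129 and 114 CPM in NF-YAfl/fl (log2 fold change 1.69 ± 0.19 SE, FDR = 0.00115). Its inverted copy Hist2h2aa2 received 3.19, 1.96 and 1.53 CPM against 0.726, 0.268 and 0.271 CPM and had the largest fitted increase of any member (2.41 ± 0.49, FDR = 0.00931). Every 75-base window of the coding parts of this pair, the length of a read, occurs in at least 1 other gene, so reads from there do not belong to 1 gene alone. Summed, the pair stood at 372 ± 80.8 against 115 ± 13.9 CPM (log2 fold change 1.69). Hist1h2ab followed in TPM, with 106, 137 and 134 CPM against 34.5, 54.0 and 29.6 CPM (1.67 ± 0.24, FDR = 0.00254). Hist1h2ap was at 72.4, 98.7 and 112 CPM against 22.5, 36.0 and 19.6 CPM (1.86 ± 0.27, FDR = 0.00269). Hist1h2ah, whose promoter is printed above, was at 32.0, 50.5 and 46.7 CPM against 8.91, 14.9 and 6.96 CPM (2.07 ± 0.31, FDR = 0.0031). In all 5 genes the groups did not overlap, as in 56 of all 60 members with higher values and 29.1% of all genes tested.

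The 3 H2A members without a call differed in kind. Hist2h2ab stood at 1.79, 3.96 and 3.38 CPM against 0.994, 1.55 and 1.70 CPM (1.11 ± 0.36, FDR = 0.049). Hist3h2a was at 19.8, 28.4 and 27.8 CPM against 10.4, 15.5 and 15.7 CPM (0.87 ± 0.21, FDR = 0.0187), higher in each NF-YAcKO library but by less than the fold threshold. The pseudogene Hist1h2al (chr13:51200084-51203066) had under 1 CPM in every library and overlapping groups (-0.43 ± 0.60, FDR = 0.595).

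Among the H2B genes, 14 of 18 were called higher. Hist2h2bb was the most abundant by TPM, with 194, 293 and 273 CPM in NF-YAcKO and 54.8, 97.9 and 43.5 CPM in NF-YAfl/fl (1.95 ± 0.32, FDR = 0.00433). Hist1h2bg was at 144, 208 and 185 CPM against 52.7, 76.9 and 42.8 CPM (1.64 ± 0.24, FDR = 0.00285). The largest called changes were those of Hist1h2bh, at 69.9, 95.9 and 92.7 CPM against 16.7, 34.0 and 11.4 CPM (2.06 ± 0.39, FDR = 0.00711), and of Hist1h2bl, at 31.4, 62.7 and 44.4 CPM against 7.84, 18.4 and 7.97 CPM (2.02 ± 0.41, FDR = 0.00888). Each of these 4 genes had higher values in every NF-YAcKO library than in any control, as did 56 of all 60 members and 29.1% of all genes tested.

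Hist1h2bc, which also ranked among the 3 most abundant H2B genes by TPM, was not called. It was at 120, 167 and 174 CPM against 89.0, 93.3 and 65.6 CPM (0.89 ± 0.19, FDR = 0.0109). Its groups did not overlap, as with 29.1% of all genes tested in the same direction. Hist2h2be was the H2B gene with the smallest difference, at 1.15, 1.5 and 1.20 CPM against 1.22, 1.52 and 1.29 CPM (-0.07 ± 0.24, FDR = 0.839). Hist3h2ba (1.5 ± 0.52, FDR = 0.0566) and the pseudogene Hist3h2bb-ps (0.44 ± 0.31, FDR = 0.304) had under 1 CPM in all libraries.

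Of the 12 H3 genes, 11 were called higher and 1 lower. Hist1h3b was the most abundant by TPM, with 105, 154 and 153 CPM in NF-YAcKO and 36.9, 64.5 and 37.8 CPM in NF-YAfl/fl (1.57 ± 0.26, FDR = 0.00451). Hist1h3e was at 105, 146 and 142 CPM against 32.9, 58.6 and 32.1 CPM (1.67 ± 0.27, FDR = 0.00385), and Hist1h3c, with 5 CCAAT matches, at 96.9, 127 and 136 CPM against 30.2, 45.8 and 28.7 CPM (1.78 ± 0.22, FDR = 0.00156). The largest called changes were those of Hist1h3g (57.9, 88.0 and 80.8 against 13.3, 28.3 and 11.6 CPM, 2.09 ± 0.36, FDR = 0.00512) and Hist1h3d (59.0, 91.6 and 77.6 against 17.3, 27.1 and 15.9 CPM, 1.92 ± 0.25, FDR = 0.00193).

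The single lower call, Hist2h3c1, concerns a gene of low level that shares its coding sequence windows with other genes. Hist2h3c1 had 0 counts in the 3 NF-YAcKO libraries and 1.07, 1.70 and 0.950 CPM in NF-YAfl/fl, which is at least 15.6-fold lower when 3 counts per library are taken as the floor (FDR = 0.0018 in the fit, and 0.0107 without NF-YAfl/fl replicate 1, where the call was lost). Every read-length window of its coding part also occurs in other genes. Its inverted copy Hist2h3c2 was at 121, 163 and 166 CPM against 30.6, 54.0 and 35.2 CPM, and the pair summed to 150 ± 24.8 against 41.2 ± 12.8 CPM (log2 fold change 1.86 ± 0.24, FDR = 0.00174). After the reads of 3 such pairs (Hist2h3c1 with Hist2h3c2, Hist2h2aa1 with Hist2h2aa2 and Hist1h2bq with Hist1h2br) were summed, 49 of 57 features were called higher and 0 lower by edgeR, and 0 were lower at an unadjusted p under 0.05.

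Of the 12 H4 genes, 11 were called higher. Hist1h4d was the most abundant member of all by TPM, with 214, 266 and 273 CPM (1253, 1320 and 1488 TPM) in NF-YAcKO and 70.2, 107 and 75.1 CPM (408, 759 and 337 TPM) in NF-YAfl/fl (1.58 ± 0.19, FDR = 0.00145). Hist1h4m, whose printed promoter has no CCAAT, was at 155, 274 and 251 CPM against 66.0, 91.8 and 57.8 CPM (1.66 ± 0.26, FDR = 0.00367). Hist1h4c had the lowest FDR of any member (146, 192 and 194 against 60.6, 67.6 and 59.1 CPM, 1.51 ± 0.14, FDR = 0.000546). Hist1h4j (46.9, 83.4 and 79.6 against 12.8, 22.8 and 13.8 CPM) and Hist1h4k (101, 154 and 143 against 26.6, 41.4 and 31.3 CPM) had the largest called changes, 2.08 ± 0.30 and 2.0 ± 0.22. Hist1h4i was the exception, at 8.77, 13.2 and 11.9 CPM against 4.09, 6.54 and 4.0 CPM (1.21 ± 0.26, FDR = 0.0113). The outlying gene Hist4h4 on chromosome 6, whose coding part shares no read-length window with another gene, was at 23.8, 39.3 and 37.1 CPM against 7.45, 12.9 and 8.86 CPM (1.77 ± 0.27, FDR = 0.00324).

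By cluster, 43 of 46 Hist1 members, 7 of 10 Hist2 members and the single Hist4 member were called higher, with median log2 fold changes of 1.83, 1.64 and 1.77. Of the 3 Hist3 members 0 were called by edgeR or DESeq2, 2 were higher at an unadjusted p under 0.05 in edgeR, and their values ran from 0.44 to 1.5. A difference between the clusters was not tested.

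Members with and without CCAAT matches had similar median fold changes. The 8 members whose listed promoter had no CCAAT, all of them H4 genes, had a median of 1.79 on the log2 scale with 7 called higher, the 4 with 1 match a median of 1.74 with 3 called higher, and the 41 with at least 2 matches a median of 1.81 with 38 called higher. Within H4 the 3 genes with a match had values of 1.51, 1.58 and 1.94. These are descriptions, and no test was run across genes.

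Divergent neighbours had similar fold changes, but so did the members as a whole. The middle of all members lay between 1.59 and 1.94, and 51 of 60 were called higher. Whether neighbours were more alike than other members was not tested. In all, 12 H2A-H2B pairs with 24 members stood head to head with 163 to 267 bases between their annotated starts, and in 9 of the 12 pairs both genes were called higher. The log2 fold changes within a pair differed by a median of 0.15. Hist1h2ah (2.07) and Hist1h2bk (1.92) are a pair of this kind, as are Hist1h2an (1.98) and Hist1h2bp (2.0). The largest gap was 1.66, between Hist2h2ac (1.59) and Hist2h2be (-0.07), followed by 0.76 between Hist1h2ac (1.66) and Hist1h2bc (0.89).

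Some H2B genes have more than 1 transcript model, and their forms could be followed for Hist1h2bc, which was chosen after its values were seen, as were the other transcripts below. RSEM divides the reads of this gene between a 469-nt and a 728-nt RefSeq transcript. The 469-nt form was at 103, 158 and 159 CPM in NF-YAcKO and 41.6, 58.6 and 37.2 CPM in NF-YAfl/fl (log2 fold change 1.61 ± 0.25, FDR = 0.0199 among 45367 transcripts), similar to other histone genes. The 728-nt form was at 17.9, 12.3 and 17.1 CPM against 47.5, 34.6 and 26.7 CPM (-1.20 ± 0.26, FDR = 0.0463). Neither passed the FDR of 0.01. The differences had opposite signs, and the groups did not overlap in either form, which is a description and not a test. Of all genes tested, 29.1% also had every NF-YAcKO library above every NF-YAfl/fl library. That share was not counted for transcripts, nor was the share with every NF-YAcKO library below every control, the direction of the 728-nt form. The long form held 14.8, 7.25 and 9.72% of the gene's expected counts in NF-YAcKO and 53.3, 37.1 and 41.8% in NF-YAfl/fl (two-sided exact permutation test, p = 0.1, the smallest that 3 against 3 libraries allow).

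Longer forms of other H2B genes also held a lower share in every NF-YAcKO library than in any control. Such a share also depends on the short form, which was higher in NF-YAcKO in each of these genes, so it can fall without a fall of the long form. For Hist1h2be, the forms of 2480 and 2506 nt together took 3.15, 2.8 and 3.04% of the gene's counts against 6.72, 6.27 and 5.41% (exact permutation p = 0.1); by level, the 2480-nt form was at 2.95, 4.27 and 4.27 CPM against 2.03, 3.36 and 1.42 CPM (0.75 ± 0.43, FDR = 0.358), with overlapping groups, while the 445-nt form was at 93.0, 154 and 138 CPM against 36.9, 51.9 and 26.5 CPM (1.74 ± 0.31, FDR = 0.027). In the matching GENCODE model of 2480 nt the stem-loop pattern stands 1861 bases before the end and a poly(A) signal (AATAAA or ATTAAA) 14 bases before it, so this transcript runs through the stem-loop. For Hist1h2bq and its copy Hist1h2br, between which RSEM divided the counts equally, the 2121-nt form took 0.151, 0.0880 and 0.185% against 2.81, 2.29 and 1.98%. It was at 0.161, 0.147 and 0.286 CPM against 0.957, 1.34 and 0.462 CPM (-2.19 ± 0.73, FDR = 0.138) and was not called. In the NF-YAcKO libraries 3 counts correspond to 0.0705 to 0.0957 CPM, so these values rest on few reads. Hist2h2be has a single model of 2667 nt, in whose GENCODE counterpart the stem-loop pattern was not found and a poly(A) signal stands 16 bases before the end.

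Over all 67 transcripts of the members, 64 were tested, and edgeR called 2 higher and 0 lower (4 were lower at an unadjusted p under 0.05), beside 0.39% and 1.01% of all transcripts tested. At an FDR under 0.05 with the same fold, 51 member transcripts were higher and 2 lower, and the median log2 fold change was 1.80. In each of the 6 fits that left out a library 0 of them were called higher. Those fits called only 1 to 42 of all transcripts higher, against 177 in the full fit, so the loss is not particular to the members.

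**Figure D4:**
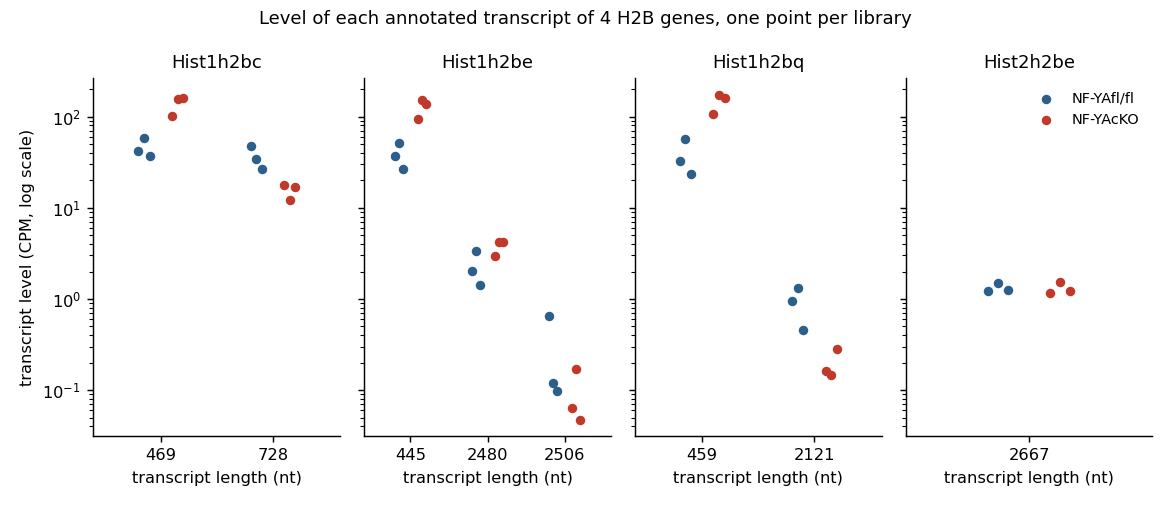
Level of each annotated RefSeq transcript (CPM, log scale) of 4 H2B genes, by transcript length, 1 point per library. Points of the short forms are higher in NF-YAcKO, and those of the 2667-nt Hist2h2be transcript overlap. Points of the 728-nt form of Hist1h2bc and the 2121-nt form of Hist1h2bq are lower, but neither form was called.

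How far single members can be read is set by how alike the genes are. In 47 of 60 members more than 50% of the 75-base windows of the coding part also occur in another GENCODE gene, and in 12 all of them do. The 12 H4 genes have 12 different coding sequences for 1 protein, the 12 H3 genes encode 2 proteins, and the 17 H2A and 17 H2B genes with a coding part encode 8 and 11. The level of a single member is thus an RSEM estimate that can borrow from its neighbours, while a sum over a type is not affected by how reads are split within it. Of the rows that did not meet the rule, Hist1h2aa and Hist1h2ba had 0 counts in all libraries, and Hist1h4n had 146 expected counts in NF-YAfl/fl replicate 3 and 0 in the other libraries.

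Genes that act on histone mRNA had smaller median differences than the histone genes, a comparison that was not tested. In the list of histone gene transcription, 2 of 9 genes were called higher, none lower, and the median log2 fold change was 0.24. Npat was at 61.5, 59.8 and 62.7 CPM against 51.1, 52.3 and 52.7 CPM (0.24 ± 0.08, FDR = 0.0498), and the called genes were Ccne1 and Ccne2, the cyclins that activate Cdk2. Ccne2 was at 52.1, 53.2 and 52.7 CPM against 16.7, 26.3 and 13.5 CPM (1.49 ± 0.24, FDR = 0.00381). Without NF-YAcKO replicate 1, 2 or 3 or NF-YAfl/fl replicate 1, 0 genes of this list were called in edgeR's test, and without NF-YAfl/fl replicate 3 there was 1. In the list of 3′ end processing, 0 of 11 genes were called in edgeR's test and also in DESeq2's, while 8 were higher and 0 lower at an unadjusted p under 0.05 in edgeR. Slbp was at 57.0, 60.5 and 55.5 CPM against 34.1, 35.2 and 24.1 CPM (0.89 ± 0.16, FDR = 0.00528), under the fold threshold. Its groups did not overlap, which held in this direction for 29.1% of all genes tested. In the list of histone mRNA decay, 1 of 9 was called, Lsm4 (49.5, 50.4 and 53.8 against 20.7, 22.7 and 28.9 CPM, 1.09 ± 0.14, FDR = 0.00183), a subunit of the Lsm ring that also takes part in splicing. Its call was lost without NF-YAcKO replicate 2 or 3 or NF-YAfl/fl replicate 1, and the median of that list was 0.02.

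Of 14 genes listed for histone chaperones and assembly, 5 were called higher, with a median log2 fold change of 0.77. Nasp, an H3-H4 and H1 chaperone, had the largest change, at 153, 182 and 157 CPM against 50.6, 65.0 and 55.4 CPM (1.53 ± 0.13, FDR = 0.000419). Among 19 S phase genes, which encode the replication machinery and nucleotide synthesis, 16 were called higher with a median of 1.38. Leaving out NF-YAcKO replicate 1, 2 or 3 or NF-YAfl/fl replicate 1 left 7, 5, 7 or 8 of them called, and higher calls over all genes fell in these fits too. Rrm2, the small subunit of ribonucleotide reductase, was at 415, 449 and 458 CPM against 78.6, 170 and 155 CPM (1.71 ± 0.28, FDR = 0.00395). Per CPM of the summed S phase genes, the members had 1.59, 2.23 and 2.21 CPM in NF-YAcKO and 1.35, 1.56 and 1.39 CPM in NF-YAfl/fl, so the lowest knockout library lay just above the highest control. Of 6 other RNAs without a poly(A) tail, 0 were called in edgeR's and in DESeq2's test and 0 had an unadjusted p under 0.05 in edgeR (median -0.13), Rn7sk being at 7561, 10660 and 10970 CPM against 10330, 9434 and 13310 CPM (-0.18 ± 0.21, FDR = 0.533). In others NF-YAfl/fl replicate 3 stood apart, as in Rny1 (4.89, 3.21 and 58.9 CPM in the controls) and Rmrp (1348, 1009 and 3191 CPM). SEs ran up to 1.05 (Rny1), and Terc had a fitted value of 1.11 ± 0.50 (FDR = 0.123). The lack of calls thus does not show that these RNAs were stable.

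Other histone genes, chosen with their values known, are set beside the members. Of 6 linker histone H1 genes in the Hist1 cluster 3 were called higher, with a median log2 fold change of 1.23, and of 9 replication-independent histone variants 4 were called higher, with a median of 0.69. Hist1h1a (1.94) and H2afz (1.63), the highest of the H1 genes and of the variants, lay within the range of the 51 members called higher. H3f3a (0.29 ± 0.11, FDR = 0.076) lay below that range, as did Hist1h1c (0.902) and Hist1h1e (0.975), which were not called. The lowest were Hist1h1t, at 0.0235 to 0.535 CPM (-2.67 ± 0.78, FDR = 0.0343), and H2afv (-0.11 ± 0.15, FDR = 0.581), neither of them called. These differences between gene groups were not tested.

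**Figure D5:**
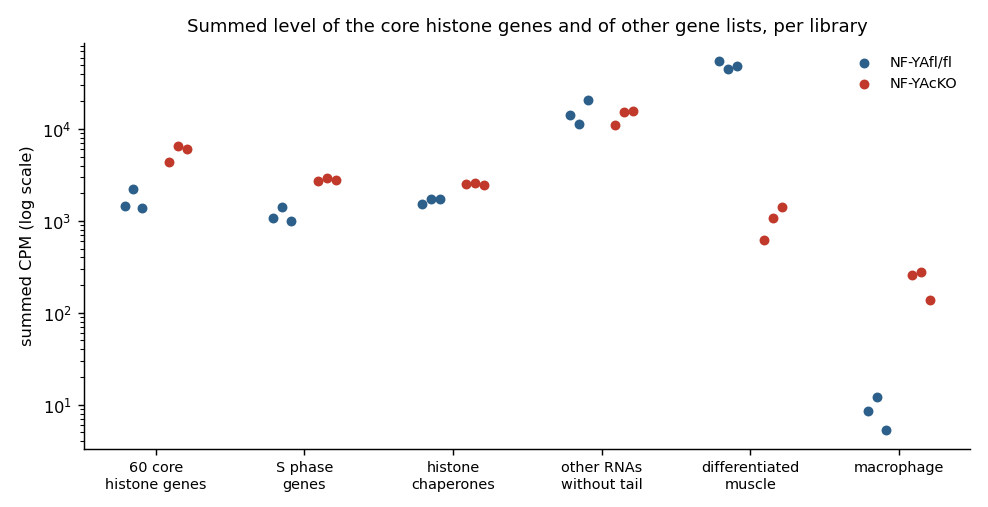
Summed CPM (log scale) of the 60 members and of 5 other gene lists in each library (points). The members and the S phase genes are higher in all 3 NF-YAcKO libraries, other RNAs without a poly(A) tail overlap, and differentiated muscle and macrophage genes differ between the groups in opposite directions.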

How the data were processed

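Total RNA libraries (TruSeq Stranded, paired 75-base reads) of 3 NF-YAcKO and 3 NF-YAfl/fl satellite cell cultures were aligned by the authors with Bowtie2 to the mm10 transcriptome and quantified with RSEM. The deposited gene and transcript tables hold expected counts, which need not be whole and share multi-mapping reads between similar genes, and TPM, which the authors' RSEM run scales by effective length to the same total in every library; the lengths deposited beside them are not measurements. The members and gene lists were chosen with earlier results of these data known. Expected counts were rounded, genes with over 10 counts in at least 2 libraries kept (17348), scaled by TMM and tested with edgeR 4.0.16 (glmQLFit, glmQLFTest, R 4.3.3), with Benjamini-Hochberg adjustment over all genes tested. SEs are the log2 fold change divided by the root of F. DESeq2 1.42.0, limma 3.58.1 on log2(TPM + 1) and log2(TPM + 0.1), other filters and left-out libraries were alternatives. In each histone type the named genes are the 3 with the highest mean TPM and the 2 called genes with the largest change among those of at least 1 CPM, besides every member called lower; of each list, Npat, Slbp and the called gene with the largest change; other named genes were chosen after their values were seen. On simulated counts for this comparison (16994 genes), 37 of 63, 40 of 66 and 56 of 65 genes changed by 1.5, 2 and 3 on the log2 scale were called, and 0 unchanged genes. The labels do not say that replicates are separate mice, so p-values measure the spread between these libraries. The pairs of libraries within a group differed by 13.1 to 215 in chi-square per gene, beyond sampling noise. A floor of 3 counts covers counting error only. Promoter sequences and coordinates are from RefSeq (GRCm38.p6, 60 of 60 members matched, 53 with a promoter), transcripts from GENCODE vM21.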

Additional observations from a re-analysis of the deposited data

How the results depend on the processing

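Every summed level by histone type kept its direction: with TPM sums, DESeq2 size factors or library totals the log2 ratios were within the spread between libraries, and without 1 library they ranged from 1.63 to 1.94 (H2A), 1.53 to 2.07 (H2B), 1.62 to 2.05 (H3) and 1.63 to 1.92 (H4). The 51 members called higher became 16 with limma on log2(TPM + 1), 22 on log2(TPM + 0.1) and 4 to 50 without 1 library, while DESeq2, other size factors, filters, rounding and thresholds gave 50 to 53. Over all genes, the 806 higher calls became 231 and 361 with limma and 177 to 890 without 1 library. DESeq2, other size factors, filters, rounding and thresholds gave 720 to 1787 over all genes. The 1 lower call became 0 when near-identical copies were summed, an alternative chosen after seeing the data as was the use of library totals for the calls, and 0 to 1 without 1 library. Member transcripts called higher numbered 2, 4 with filterByExpr and 0 without any 1 library, and 0 were called lower in all 9 transcript fits. Over all transcripts, higher calls numbered 177, 204 with filterByExpr and 1 to 42 without 1 library. Lower calls over all transcripts ranged from 0 to 520 in the 9 fits. Without 1 library, 0 to 2 histone transcription genes, 0 to 1 decay genes, 5 to 17 S phase genes and 0 to 1 other RNAs without a poly(A) tail were called higher. The causes were not tested, beyond the fewer libraries. Of 249 values of the 21 named members under other settings, 221 kept their side of the threshold, 28 lost it and 0 reversed. Without 1 library 56 of 126 lost it.

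Replicate numbers are shared by the groups, but same-numbered libraries deviated together with correlations of only 0.17, -0.07 and 0.05, and the numbers are not taken as pairs. In NF-YAcKO replicate 2 the correlation was highest with NF-YAfl/fl replicate 3 (0.10), so not every library correlated best with its own number. With the replicate block, 51 members were called higher and 1 lower, and 1 histone transcription gene was called. Of all 45367 transcripts that fit called 0 higher and 0 lower, so the lack of calls among member transcripts is not particular to them.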
